A study of Mus musculus with 3 samples.

Results

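A small group of thymocytes that carried transcripts of Icos and of type 17 receptors, but none of Il2rb, was described in 2 single-cell libraries of mouse thymus. A cell was taken as a member when it held at least 1 unique molecular identifier (UMI, 1 counted transcript) of Icos, at least 2 UMIs of Il17re, Il23r, Ccr6, Aqp3 and Actn2 summed, and 0 of Il2rb. The second and the third run held 16363 cells between the limits of 500 and 5000 genes and below 7% of mitochondrial UMIs, and 656 of them (4.01%) met this rule. They were 395 of 8852 cells in the second run (4.46%, 95% interval 4.04 to 4.91) and 261 of 7511 cells in the third (3.47%, 3.07 to 3.91). All intervals are exact binomial or Poisson intervals that cover counting error only. In the first run, which was not used to choose members, 5 of 5516 cells met the same rule. The counts of these 7 genes chose the members, so that the levels of these genes, and every contrast of members against other cells of the same run, are given as a description and were not tested.

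Type 17 lymphocytes are T cells and related innate cells that can release IL-17A, IL-17F and IL-22 when IL-23 and IL-1β reach them. A part of the γδ T cells, and some innate-like αβ T cells such as NKT and MAIT cells, acquire this programme already in the thymus, before any encounter with a pathogen. IL-7 signals and a lack of the IL-15 receptor subunit encoded by Il2rb mark many of these cells, whereas Il2rb marks type 1 T cells and natural killer cells. Icos encodes a costimulatory receptor of activated and innate-like T cells.

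All cells came from the thymus of C57BL/6 mice with no treatment or mutation named, labelled week 6 and stated to be 6 to 8 weeks old, and 4 thymi were pooled for each library after depletion of CD4+ and CD8+ cells on magnetic beads. Cells stained for TCRβ, NK1.1, B220, CD11b or CD11c were gated out of the sorts. The second run held sorted CD44+ DN1 (CD25-) and DN2 (CD25+) cells, without TCRγδ+ cells. In the third run, DN1 with DN2, DN3 (CD25+ CD44-) and TCRγδ+ cells were sorted apart and mixed, and the first run held all double negative cells with TCRγδ+ cells. Each sort was made once, so that the runs are not replicates of each other, and sort, reagent kit and depth cannot be told apart between them. The second library held 52797915 UMIs and the third 98533329. The median member had 3901 UMIs in the second run and 9237 in the third, against 4941 and 8473.5 for the other cells. No cell barcode was shared between the members of the 2 runs, although 72 kept barcodes occurred in both the first and the second run.

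The rule genes lie apart in the genome. On GRCm38, Icos is at chr1:60977927-61000320 on the plus strand, Il17re at chr6:113458484-113470758 on the plus strand, Il23r at chr6:67422932-67491855 on the minus strand, Ccr6 at chr17:8236043-8257141 on the plus strand, Aqp3 at chr4:41092722-41098183 on the minus strand and Actn2 at chr13:12269426-12340760 on the minus strand. The members carry these genes together with Rora, a nuclear receptor gene. The 250 bases before the starts annotated in RefSeq were therefore searched for AGGTCA, the core letters that many nuclear receptors are known to bind. Both strands were searched (TGACCT on the other strand). For Il17re and Actn2 these starts lie inside the gene spans given above, and all distances below count from the RefSeq starts. RefSeq promoters on GRCm38.p6 matched 5 of the 6 genes with 6 promoters, since Ccr6 has a second start, and 3 of these 6 promoters (50.0%) held the letters, against 4607 of 32851 (14.0%) in the whole table. The 3 promoters with a match are shown 5′ to 3′ on the strand of the gene, with the matched letters in capitals. They span chr6:67491856-67492105 for Il23r, with matches 229 and 66 bases before the start, chr13:12340733-12340982 for Actn2, with a match 170 bases before it, and chr17:8235793-8236042 for the upstream start of Ccr6, with a match 44 bases before it.
Il23r: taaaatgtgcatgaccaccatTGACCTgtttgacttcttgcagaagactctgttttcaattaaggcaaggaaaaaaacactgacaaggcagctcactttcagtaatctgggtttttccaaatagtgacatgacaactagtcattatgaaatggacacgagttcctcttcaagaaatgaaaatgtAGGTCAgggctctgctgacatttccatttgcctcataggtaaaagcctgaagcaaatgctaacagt
Actn2: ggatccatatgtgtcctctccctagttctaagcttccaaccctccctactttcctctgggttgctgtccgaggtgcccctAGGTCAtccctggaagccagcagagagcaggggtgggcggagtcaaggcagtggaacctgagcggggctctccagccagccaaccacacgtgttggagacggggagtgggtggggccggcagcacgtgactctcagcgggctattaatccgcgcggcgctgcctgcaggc
Ccr6: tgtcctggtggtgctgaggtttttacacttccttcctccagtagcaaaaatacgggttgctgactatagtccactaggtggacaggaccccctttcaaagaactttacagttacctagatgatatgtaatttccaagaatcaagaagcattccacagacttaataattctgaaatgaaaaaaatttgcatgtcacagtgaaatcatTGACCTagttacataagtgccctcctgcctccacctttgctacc
The promoters of Aqp3, Il17re and the second start of Ccr6 did not hold these letters. Among the type 17 lists used below, the letters were in 2 of 12 promoters of regulators, 3 of 16 of cytokines and receptors and 3 of 18 of surface and effector genes. A match is a run of letters and not a measured binding site.

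The 5 genes that were summed did not occur evenly. Il17re, a subunit of the receptor for IL-17C, had a UMI in 63.5% of members in the second run and 68.6% in the third. Actn2, an actin-crosslinking protein best known from muscle, had one in 58.5% and 81.2%, and Aqp3, a water and glycerol channel, in 54.7% and 38.3%. Il23r, the receptor subunit specific to IL-23, was found in 25.8% and 45.2% of members, and Ccr6, a chemokine receptor of type 17 cells, in 25.6% and 68.6%. By share of cells, Ccr6 differed most of the 5 genes between the runs, in which the depth per member also differed, whereas by level it was Aqp3, at 187 CPM in members of the second run and 50.2 CPM in those of the third, against 72.1 and 159 CPM for Ccr6 (CPM, UMIs per 1000000 UMIs of the summed cells). Of the 5 genes, 67 members of the second run had only 1, 192 had 2, 101 had 3, 28 had 4 and 7 had all 5. In the third run 31 members had 1 gene, 49 had 2, 88 had 3, 70 had 4 and 23 had all 5, and the median summed count was 6 UMIs against 3 in the second run.

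Cells just outside the threshold resembled members in some genes that the rule did not read and differed in others, mainly in the third run. Among cells with Icos and no Il2rb, 412 in the second run and 368 in the third had 0 UMIs of the 5 genes, 128 and 74 had 1, 131 and 42 had 2, and 264 and 219 had 3 or more. Maf, a transcription factor of these cells, stood at 89.4, 195, 217 and 257 CPM over these 4 steps in the second run, and at 179, 445, 419 and 368 CPM in the third. Its main rise therefore lay between 0 and 1 UMI, outside the threshold. Rora stood at 33.8, 95.9, 103 and 120 CPM in the second run and at 52.2, 106, 162 and 197 CPM in the third, where it rose on both sides of the threshold. Cd24a, a surface protein of immature thymocytes, fell from 494 to 203, 121 and 108 CPM in the second run. In the third run it went from 270 to 227, 177 and 34.8 CPM, with its main step inside the threshold. Il7r, the receptor for IL-7, reached 221, 582, 694 and 685 CPM in the second run and 410, 560, 773 and 1521 CPM in the third, so that the third run again separated members with 2 UMIs from those with more. Over the same steps of the third run, Il18r1 stood at 71.0, 135, 226 and 444 CPM and Tmem176a at 50.8, 101, 170 and 518 CPM. The receptor gene Trdc stood there at 502, 684, 475 and 142 CPM. A condition at 0 UMIs of Il2rb set aside a further 109 cells in the second run and 235 in the third.

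**Figure D1:**
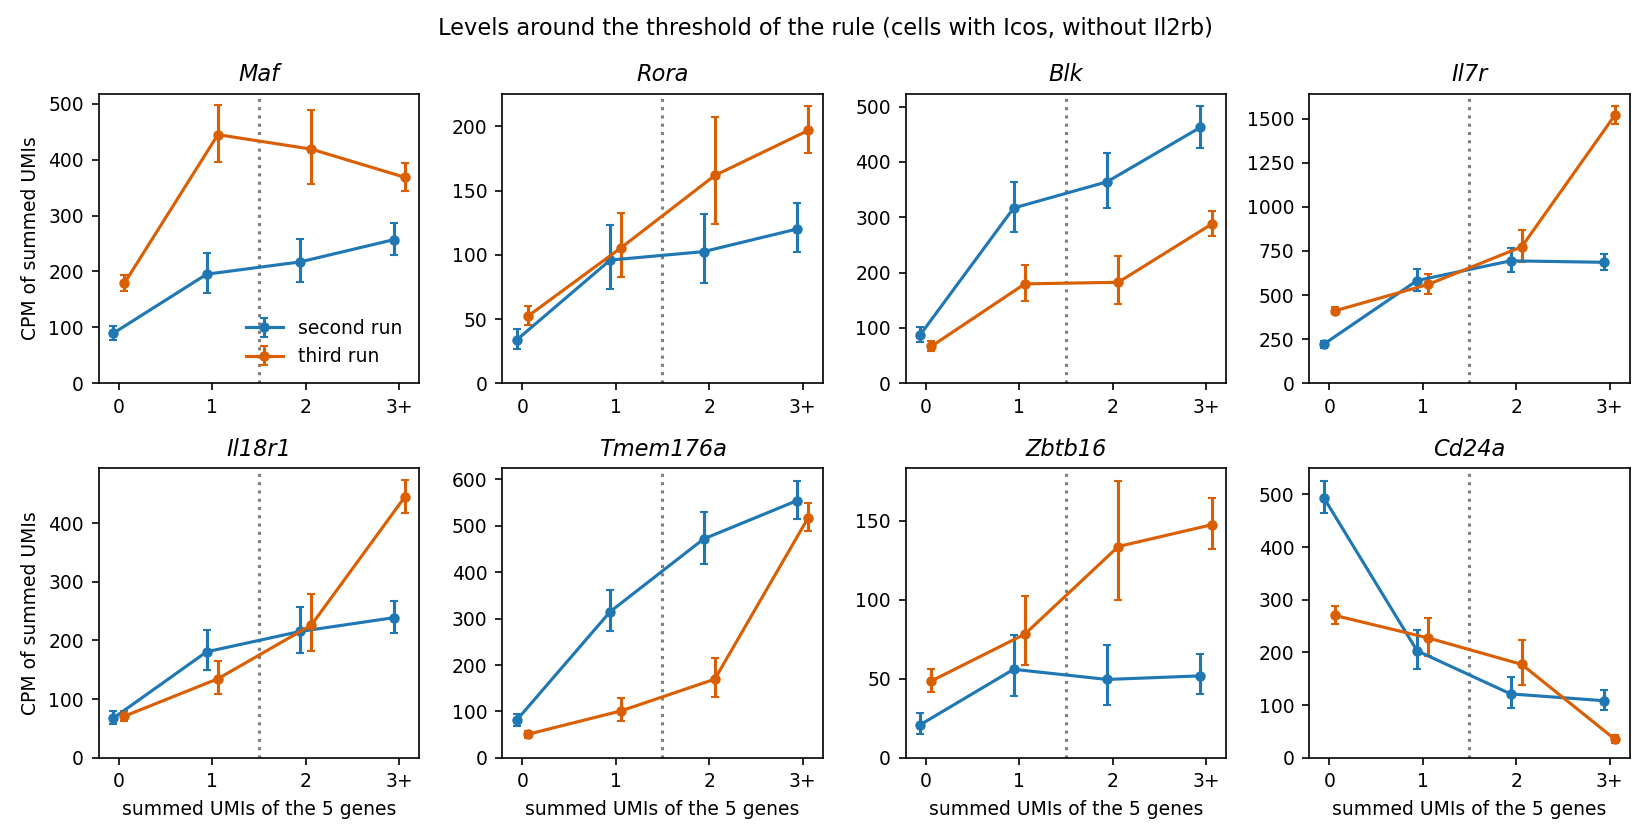
Levels of 8 genes that the rule did not read, in CPM of summed UMIs, in cells with Icos and without Il2rb, by the summed UMIs of the 5 rule genes (0, 1, 2, 3 or more), with 95% Poisson intervals. Points right of the dotted line are members, and Maf rises mostly between 0 and 1 UMI, from 89.4 to 195 CPM in the second run and from 179 to 445 CPM in the third.

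The label of mature type 17 lymphocytes was checked against genes outside the rule. The receptor component Cd3e was found in 98.0% of members in the second run and 98.1% in the third. In B cells with at least 2 UMIs of Cd79a (20 cells in the second run, 406 in the third), which should lack it, Cd3e had a UMI in 45.0% and 16.7%, at a median of 15620 and 5056 UMIs. With each cell thinned to 2000 UMIs, these shares were 84.6% and 65.1% in members and 10.0% and 7.69% in B cells. The members thus carried Cd3e in both runs, including the one that had been sorted without TCRγδ+ cells. Trbc2 was in 97.7% and 99.2% of members, but also in 75.0% and 50.0% of the B cells. In the rest of each run, Cd3e was found in 88.8% and 87.1% of cells and Trbc2 in 97.8% and 96.1%. Neither gene thus bears on the words mature or type 17 in the label. Ncr1 and Eomes, genes of natural killer cells, were at 0 UMIs among all members of both runs, which allows up to 1.61 CPM and 1.14 CPM, respectively (3 counts over the members). Klrb1c, the most abundant gene of that list in members, stood at 63.5 against 57.7 CPM in the rest of the second run. In the third run it stood at 38.8 against 32.2 CPM. Cytokine transcripts themselves were rare. Il17a was found in 5 members of the second run and 16 of the third, Il17f in 3 and 14, and Il22 in 3 and 27. Il22 stood at 2.69 CPM in the members of the second run and, in those of the third, at 54.4 CPM.

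Against all other cells of the same run, the members carried more of the genes of the type 17 programme and less of those of immature thymocytes and type 1 cells. Of 7733 genes with at least 30 UMIs of support in each run, 429 (5.55%) were at least 2-fold higher in members in both runs and 579 (7.49%) at least 2-fold lower. At 4-fold, these were 129 (1.67%) and 114 (1.47%). With the rest limited to cells with Icos, 139 were at least 2-fold higher and 129 lower, and with at least 100 UMIs of support 218 and 263. That limit on the rest also weakened 93 ratios of single genes and reversed 4, while 135 were the same. The median gene was shifted by -0.11 in the second run and -0.10 in the third on the log2 scale, and all values below are given without removing this shift. In the plot of both runs, most genes of the receptor and effector lists lie past 2-fold on both axes.

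**Figure D2:**
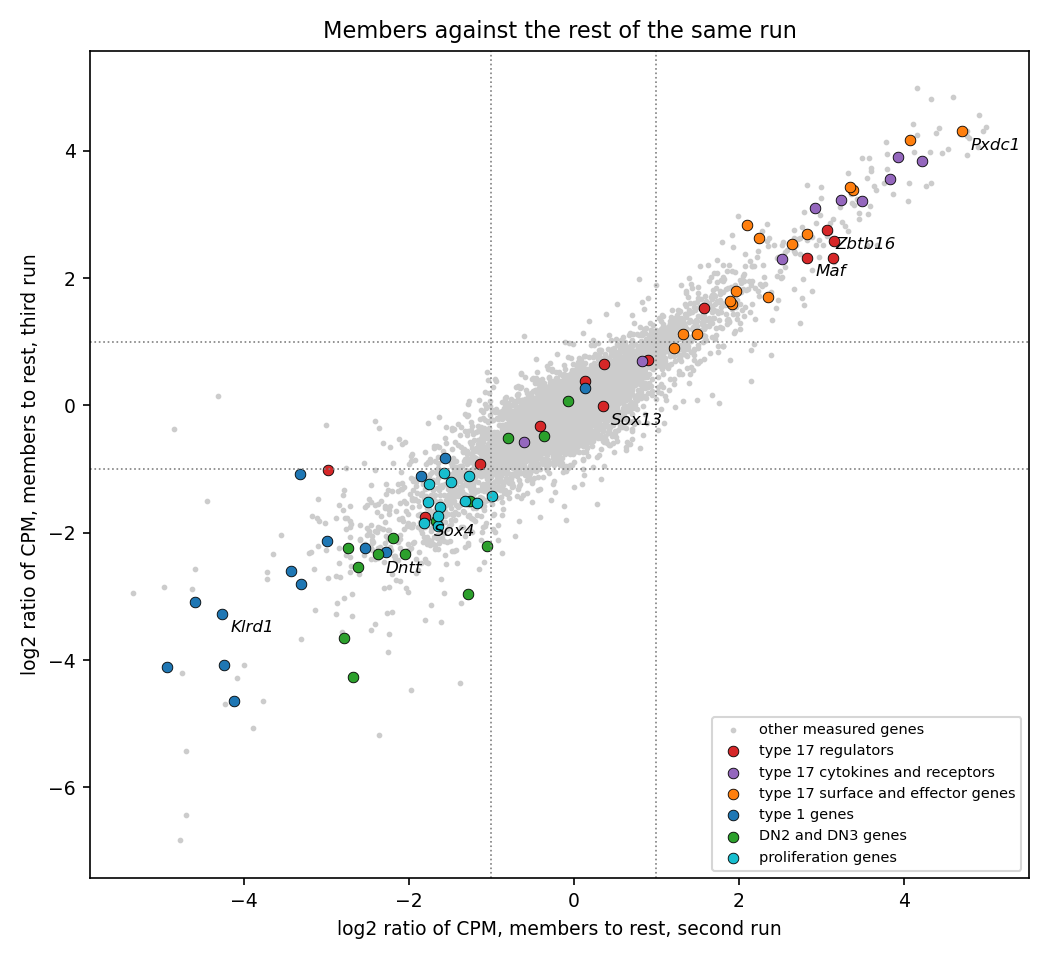
Log2 ratio of CPM in members to the rest of the same run, with the second run on the x axis and the third run on the y axis, for the measured genes, with 6 gene lists in color and dotted lines at 2-fold. Type 17 receptors and effector genes lie at the upper right, with Pxdc1 at 26.1-fold and 19.8-fold, and type 1 genes at the lower left, with Klrd1 at ratios of 0.0521 and 0.103.

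Of 13 transcriptional and signaling regulators of the type 17 programme (12 nuclear regulators and the kinase gene Blk), all measured, 5 were past 2-fold higher in both runs (Maf, Blk, Rora, Zbtb16 and Batf) and 2 lower (Sox4 and Etv5), with a median log2 ratio of 0.37 and 0.65. Rora stood at 115 CPM in members against 12.9 CPM in the rest of the second run (7.58-fold to 10.4-fold higher), and at 192 CPM against 31.9 CPM in the third (5.45-fold to 6.62-fold). A Rora UMI was found in 40.0% and 77.8% of members, against 5.94% and 15.3% of the other cells. Maf, a factor of IL-17 and IL-10 producing T cells, reached 244 against 34.3 CPM and 376 against 75.3 CPM. Zbtb16, which encodes PLZF and marks innate-like T cells, reached 51.1 against 6.11 CPM and 145 against 21.6 CPM, so that its ratios were alike (8.37 and 6.74) although its level differed between the runs. Blk, a Src family kinase needed by IL-17 producing γδ T cells, was 8.85-fold and 4.97-fold higher. Sox13, a factor of the γδ T cell lineage, was close to the rest, at 21.5 against 16.8 CPM and 48.7 against 49.3 CPM. Sox4 lay lower, at 82.3 against 287 CPM and 163 against 551 CPM.

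Cytokine receptors had the highest median ratio of the lists. Of 13 cytokine and receptor genes, 9 were measured, 7 were past 2-fold higher in both runs and 0 lower, and the median log2 ratio was 3.24 in the second run and 3.21 in the third. Il7r stood at 688 CPM against 120 CPM, and at 1411 CPM against 286 CPM, and had a UMI in 93.2% and 94.3% of members. Il18r1, the IL-18 receptor, was 9.43-fold and 9.38-fold higher, and Il1r1, through which IL-1β acts, was 14.3-fold and 11.8-fold higher. The receptor for the TNF family ligand TL1A, Tnfrsf25, was 15.3-fold and 14.9-fold higher, and Ltb4r1, the receptor for leukotriene B4, 18.7-fold and 14.3-fold. Of the chemokine receptors on the list, Ccr2 was 11.3-fold and 9.23-fold higher, and Cxcr6 7.61-fold and 8.62-fold. The members thus carried receptors for inflammatory cytokines and lipids at similar ratios in both sorts, while cytokine transcripts were seen in few cells.

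Of 15 surface and effector genes, 14 were past 2-fold higher in both runs and 0 lower, and the exception, Ramp1, stood at 2.32-fold and 1.87-fold. The calcium-binding protein gene S100a4 was at 928 against 91.2 CPM and 1947 against 181 CPM. Lgals3, which encodes galectin-3, stood at 635 against 60.7 CPM and 734 against 70.2 CPM. Tmem176a, a membrane channel gene highly expressed in type 17 cells, stood at 528 against 74.6 CPM and 466 against 71.7 CPM. Pxdc1 had the highest ratios of the list, at 350 against 13.4 CPM (26.1-fold) and 204 against 10.3 CPM (19.8-fold). Cd44, a surface marker of the DN1 and DN2 gate and of memory-like T cells, was 3.78-fold and 3.02-fold higher. The scavenger receptor genes Cd163l1 (SCART1) and 5830411N06Rik (SCART2), known from γδ T cells, were less far from the rest, at 2.81-fold and 2.17-fold for Cd163l1 and 2.50-fold and 2.17-fold for 5830411N06Rik.

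Outside the lists, the 12 genes with the highest ratios were Tpbgl, Prr29, Palld, Sdc1, Lrrn2, Fam83a, Zp1, Ramp3, Lrrc17, Kcnc1, Stab2 and Rnf208. Sdc1, which encodes the proteoglycan syndecan-1, stood at 160 against 7.46 CPM in the second run and 108 against 5.23 CPM in the third, or 21.5-fold and 20.6-fold. Fam83a was at 174 against 5.59 CPM and 62.8 against 3.16 CPM. Ramp3, a partner protein of the calcitonin receptor family, was at 61.9 against 2.93 CPM and 68.9 against 3.53 CPM. These genes were picked by the smaller of their 2 ratios, so that a high ratio in both runs follows from the choice. The 8 genes with the lowest ratios were Jchain, Klra3, Klrc2, Igha, Klra9, Klra5, Pld4 and Gstm1, of which Jchain and Igha encode parts of antibodies and Klra3, Klrc2, Klra9 and Klra5 receptors of natural killer cells.

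Type 1 genes were low. Of 14 measured type 1 genes, 12 were past 2-fold lower in both runs and 0 higher, with a median log2 ratio of -3.31 and -2.45. Ccl5, a chemokine of cytotoxic cells, was at 10.2 against 193 CPM and 6.85 against 116 CPM, and Klrd1 at 7.53 against 145 CPM and 4.95 against 47.8 CPM. Tbx21, which encodes T-bet, had 2 UMIs in the members of the second run and 0 in those of the third. Klrb1c, which encodes NK1.1, differed from the list and stood at 63.5 against 57.7 CPM and 38.8 against 32.2 CPM. NK1.1+ cells had been gated out of the sorts. The rule itself asked for 0 UMIs of Il2rb, which type 1 cells carry. The only measured type 2 gene, Gata3, which all T cells use, was at 155 against 160 CPM and 137 against 120 CPM.

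Genes of immature stages and of division were low as well. Of 14 genes of DN2 and DN3 cells, 11 were past 2-fold lower in both runs and 0 higher (median log2 ratio -1.85 and -2.23), and of 6 measured progenitor genes, 5 were lower. Dntt, which adds bases at receptor joints, stood at 246 against 1280 CPM and 178 against 896 CPM, Ptcra, the pre-TCR α chain, at 11.3 against 77.8 CPM and 6.47 against 81.1 CPM, and Rag1 at 10.8 against 26.1 CPM and 12.6 against 97.5 CPM. With the rest limited to cells with Icos, the ratio for Rag1 in the second run was 1.004. Tcf7 and Bcl11b, which mature T cells keep, were not past 2-fold (0.779 and 0.720 for Tcf7, 0.575 and 0.698 for Bcl11b). Of 12 proliferation genes, 11 were lower and 0 higher, with Top2a at 72.1 against 226 CPM and 119 against 397 CPM.

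The members also differed in genes of homing, of survival and of innate lymphoid cells. Of 10 homing genes, Itgb7, Itgae, Gpr183 and S1pr1 were past 2-fold higher and Itga4 lower. Itgae, the αE integrin that binds epithelial cells, was 5.08-fold and 5.96-fold higher, its partner Itgb7 5.75-fold and 5.72-fold, and the oxysterol receptor Gpr183 6.38-fold and 6.76-fold. Itga4, the α4 integrin, was at 18.8 against 105 CPM and 74.2 against 302 CPM. Among 7 survival genes, Bcl2 was at 38.7 against 234 CPM and 50.6 against 218 CPM, whereas its relatives Bcl2a1b and Bcl2a1d were 8.16-fold and 5.71-fold, and 8.81-fold and 7.57-fold, higher. Bcl2a1b and Bcl2a1d are near-identical copies, and their reads may be split between them. Of 7 measured innate lymphoid and LTi genes, Id2, Gpr183 and Lta were higher and Il2ra and Kit lower, with Id2, which blocks E proteins, at 1323 against 341 CPM and 724 against 169 CPM.

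Markers of other cells (B, myeloid, plasmacytoid dendritic, erythroid, stromal and natural killer cells) had lower sums in the members than in the rest of both runs. The 8 B cell markers summed to 187 CPM in members against 2582 CPM in the rest of the second run, and to 429 against 1681 CPM in the third, and Cd79a was at 0 among members of the second run. Myeloid and dendritic markers summed to 277 against 377 CPM and 611 against 769 CPM, and the most abundant of them in members of the second run, Cst3, was at 249 against 180 CPM. Of 5 measured myeloid and dendritic markers, Fcer1g, Tyrobp and Lyz2 were past 2-fold lower in both runs and 0 higher, with a median log2 ratio of -2.36 and -2.95, so that the sum rests mainly on Cst3 and, in the third run, Cd74. The mitochondrial share was higher in members, at a median of 4.44% against 3.15% in the second run and 3.63% against 3.08% in the third, and its part in these ratios was not tested. Of the cells with the highest 10% of doublet scores, 52 were members of the second run (13.2% of its members) and 37 of the third (14.2%).

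The members were also set beside non-members with Trdc and Sox13 (570 cells in the second run and 1355 in the third) and non-members with at least 2 UMIs of Il2rb (825 and 1006 cells). Cells with Sox13 and Trdc had less Rora (33.9 and 74.9 CPM) and Maf (108 and 199 CPM), hardly any Zbtb16 (2.96 and 6.51 CPM) and more Sox4 (427 and 808 CPM), Cd24a (628 and 286 CPM) and Dntt (1124 and 792 CPM) than the members. They are thus cells in which Sox13 stands beside genes of immature stages. Cells with Il2rb resembled the members in Id2 (1607 and 786 CPM) and Cd44 (94.3 and 78.1 CPM), and differed in Rora (16.1 and 53.4 CPM), Ccl5 (862 and 685 CPM), Xcl1 (440 and 343 CPM) and Klrd1 (850 and 282 CPM). Their Bcl2a1b (186 and 211 CPM) and Bcl2a1d (82.5 and 108 CPM) lay above the rest of each run and below the members. These populations were themselves chosen by measured genes, and the contrasts were not tested.

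Members fell into 4 receptor classes by the constant region genes of the TCRα and the TCRδ chain. Trac, at chr14:54220521-54224206, and Trdc, at chr14:54142851-54148868, lie on the plus strand of the same locus, in which rearrangement of the α chain deletes Trdc. In the second run 263 of 395 members had Trac only (66.6%, 61.7 to 71.2), 33 Trdc only (8.35%, 5.82 to 11.5), 41 both (10.4%) and 58 neither (14.7%). In the third run, which held sorted TCRγδ+ cells, 151 of 261 had Trac only (57.9%, 51.6 to 63.9), 44 Trdc only (16.9%, 12.5 to 22.0), 30 both (11.5%) and 36 neither (13.8%). Cells with Trac only were the largest class in both runs. Over all other cells the order was the opposite, with Trac in 34.6% and 25.7% and Trdc in 63.8% and 65.1%, against 76.96% and 69.3% and 18.7% and 28.4% of members. Against other cells with Icos alone, the ratio of Trac CPM was 0.888 and 0.709, so that the excess of Trac is not seen there.

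Receptor UMIs in B cells and the thinning of cells were set beside these classes, and the share of free RNA was not measured. In the B cells named above, Trac had a UMI in 15.0% and 4.68% and Trdc in 15.0% and 14.5%, and both shares for Trac lie below the interval of the members' share. For Trdc in the second run, the 18.7% of members (15.0 to 22.9) lies within the interval of the 20 B cells (3.21 to 37.9), which were deeper than the members. Thinned to 2000 UMIs per cell, it was found in 14.4% of these members (11.1 to 18.3) and in 0 of the 20 B cells, which allows up to 16.8%, so that these few B cells do not settle the background of Trdc in the second run. For the third run, 28.4% of members (23.0 to 34.2) stand against 14.5% of B cells (11.3 to 18.3), and 18.4% against 6.20% after thinning. With each cell thinned to 2000 UMIs, the members with Trac only were 56.7% and 34.9%, those with Trdc only 10.4% and 16.5%, those with both 4.05% and 1.92%, and those with neither 28.9% and 46.7%. The share with neither thus grew as the depth was lowered. The class with both was rich in high doublet scores, with 24 of 41 cells (58.5%) in the second run and 14 of 30 (46.7%) in the third, and is described without a test. High scores were also more frequent with Trdc only, at 8 of 33 and 11 of 44 cells, than with Trac only, at 18 of 263 and 11 of 151, or with neither, at 2 of 58 and 1 of 36.

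**Figure D3:**
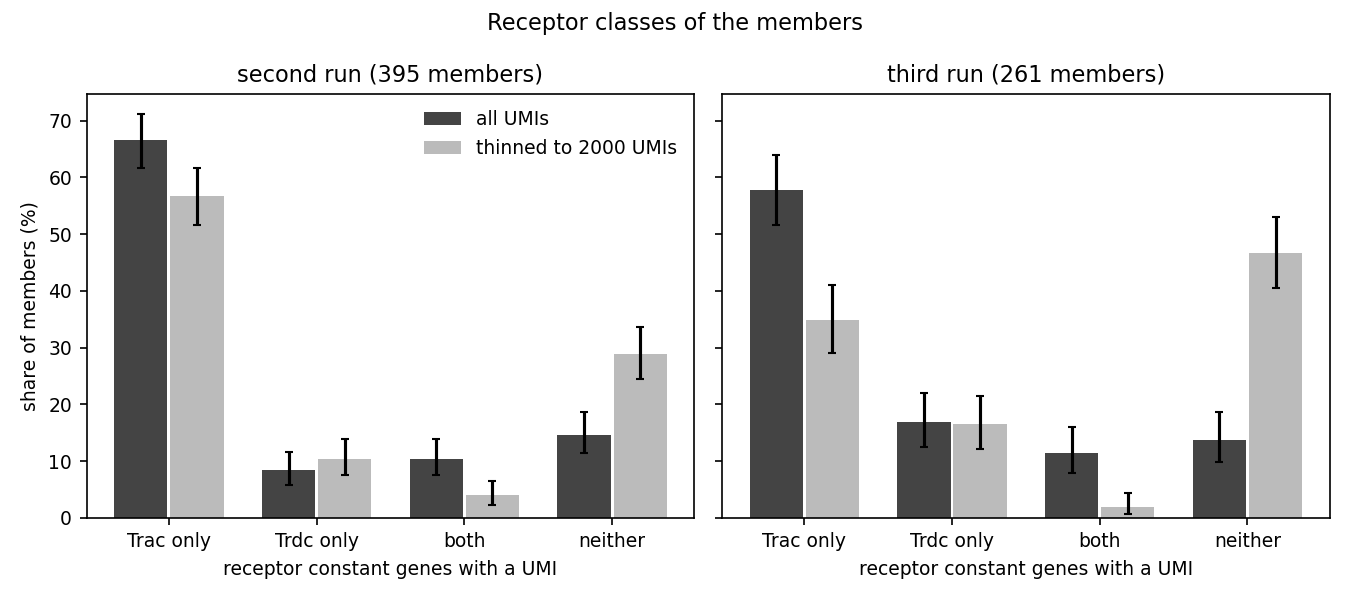
Share of members in the 4 receptor classes in each run (%), from all UMIs and after thinning each cell to 2000 UMIs, with exact 95% binomial intervals. Trac only is the largest class with all UMIs (66.6% and 57.9%), and after thinning the class with neither grows to 28.9% and 46.7%.

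The classes were compared gene by gene, since the rule did not read Trac or Trdc. Counts were summed per class and run and tested with edgeR with the run as a block, over 6 libraries of 163451 to 1564997 UMIs. Trdc-only members carried more of 8 of 10 genes of DN2 and DN3 cells than Trac-only members, and less Zbtb16, Id2 and Lgals3, with calls in both directions among type 17 effector and homing genes. Of 5427 genes tested, 286 (5.27%) were higher in Trdc-only members and 204 (3.76%) lower (adjusted p under 0.05, edgeR), and the median change over all genes was -0.0026 on the log2 scale. With no normalization beyond library size, 316 were higher and 145 lower. The classes come from 2 libraries, with 2 residual degrees of freedom. These measure how far the differences between classes varied between the 2 runs, which were different sorts, and not the spread between mice. The spread of each gene was also moderated towards that of all genes, with 21.4 prior degrees of freedom, so that the p-values rest largely on spread shared across genes. With DESeq2 88 genes were higher and 49 lower, and without the highest 10% of doublet scores 106 and 83. Without the run as a block, edgeR called 0 genes in this and in the other 2 contrasts between classes, where 238, 42 and 279 genes had an unadjusted p under 0.05.

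Among 12 type 17 regulators tested, Sox13, Sox4 and Tcf12 were higher and Zbtb16, Ahr and Rora lower in Trdc-only members. Sox13 stood at 67.3 CPM in Trdc-only against 8.68 CPM in Trac-only members of the second run, and at 159 against 17.9 CPM in the third, a log2 change of 3.02 ± 0.33 (SE, adjusted p = 6.09e-07 by edgeR). Sox4 stood at 171 against 37.3 CPM and 453 against 46.0 CPM (log2 change 2.87 ± 0.23, edgeR adjusted p = 2.81e-09). Zbtb16 went the other way, at 18.4 against 64.3 CPM and 35.2 against 196 CPM (-2.43 ± 0.30, edgeR adjusted p = 2.88e-06). Both factors of the γδ programme and PLZF thus separated the classes in the same direction in both runs. Rora stood at 97.9 against 126 CPM and 123 against 220 CPM (-0.76 ± 0.21, edgeR adjusted p = 0.0215). Maf missed the threshold and, at 275 against 254 CPM and 443 against 360 CPM, had a change of 0.17 ± 0.15. Of the 6 calls, 4 were kept with DESeq2 (Sox13, Sox4, Tcf12 and Zbtb16). The call for Rora was also lost without the highest doublet scores and with a sum of at least 3 UMIs of the rule genes.

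**Figure D4:**
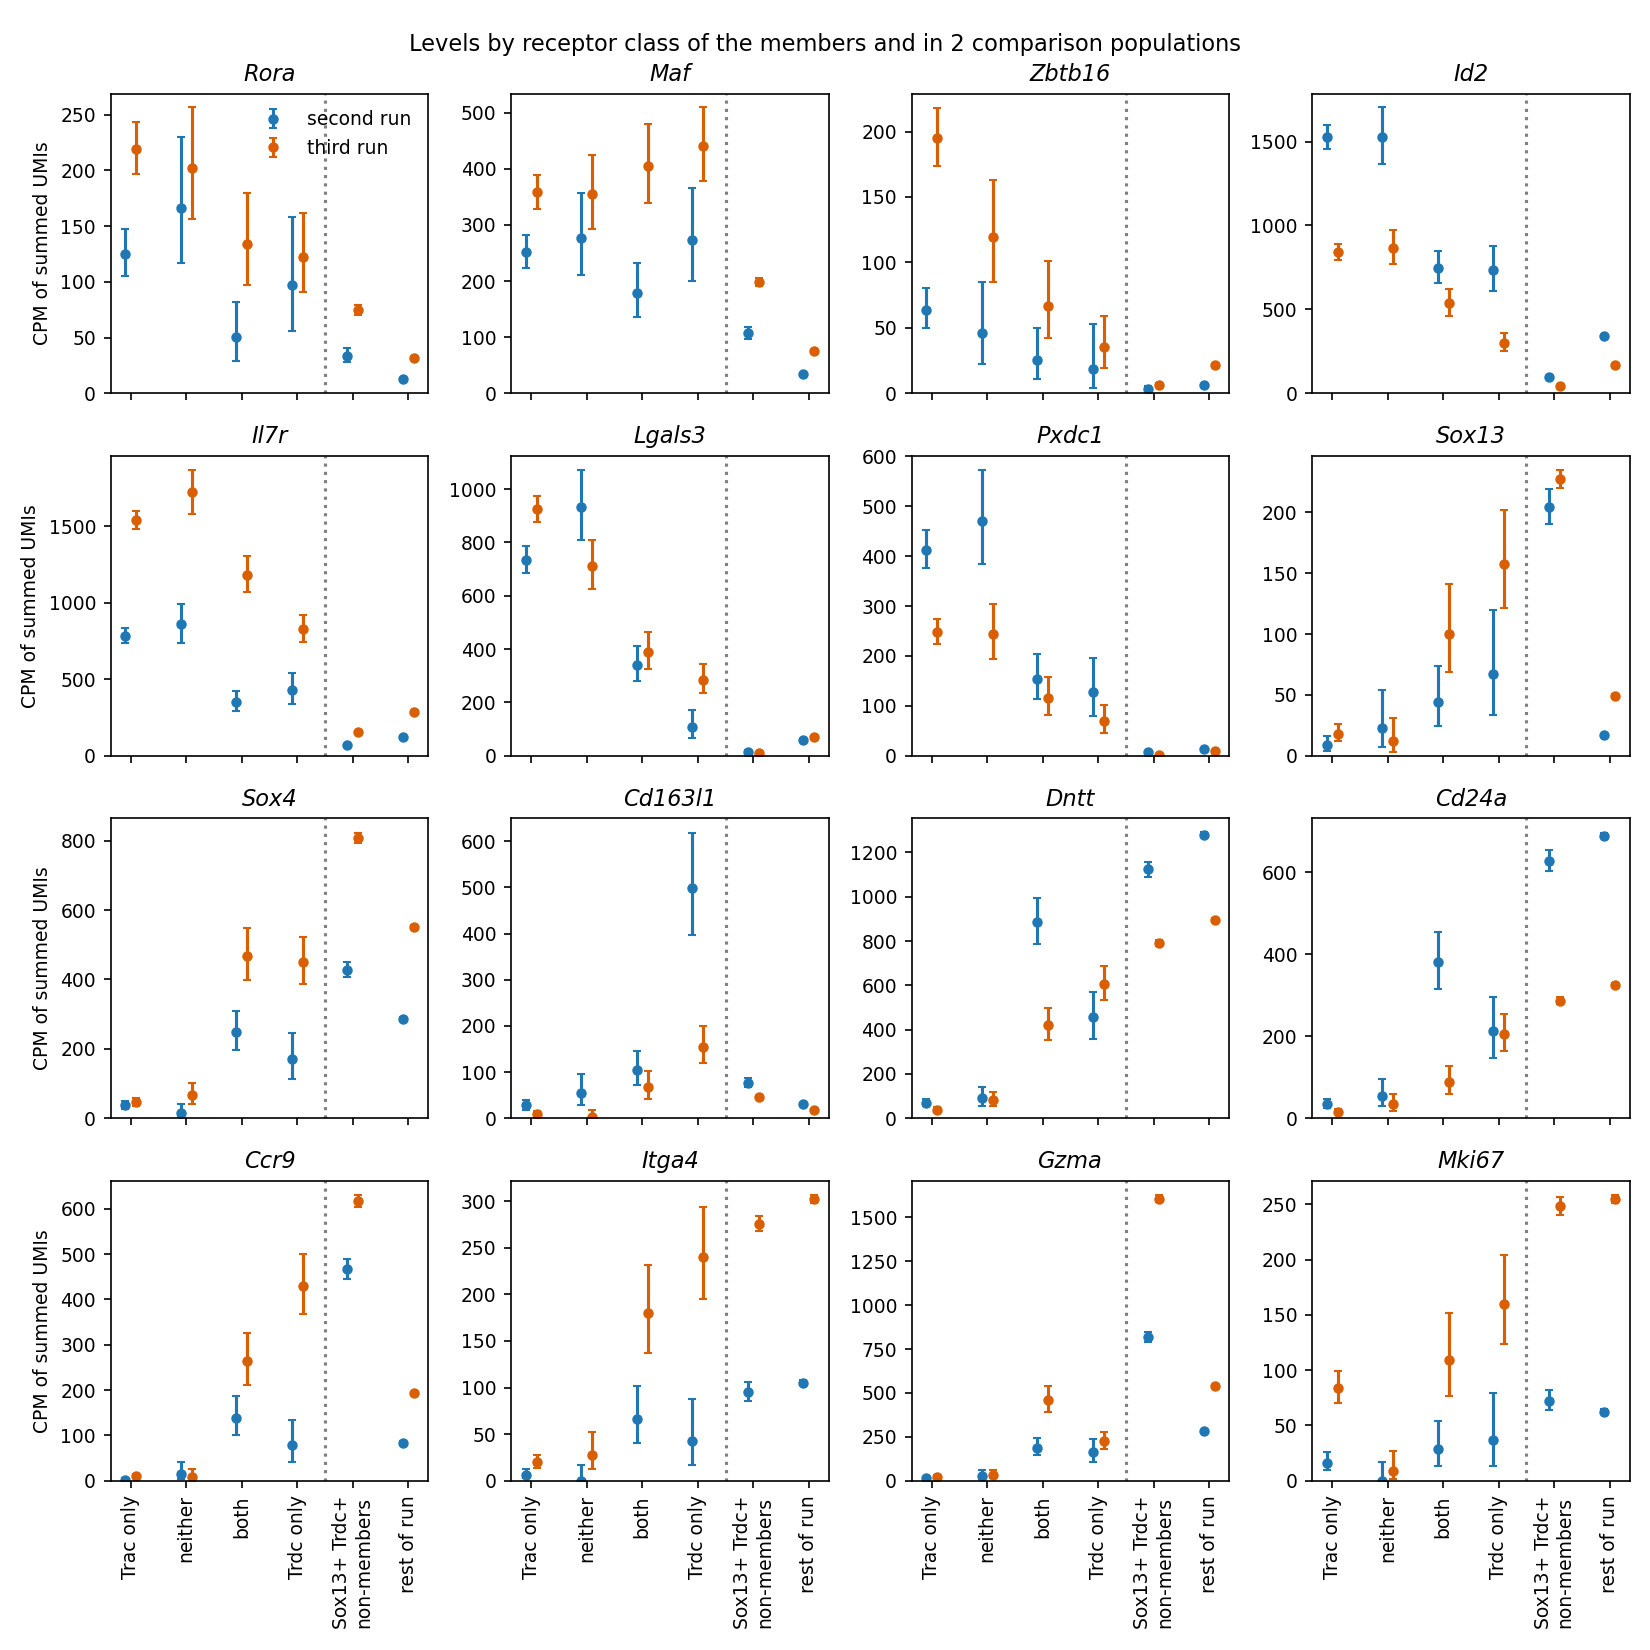
CPM of 16 genes in the receptor classes of the members, in non-members with Sox13 and Trdc and in the rest of the run, with the second run in blue and the third run in orange, with 95% Poisson intervals. In Zbtb16, Id2, Lgals3 and Pxdc1 the Trac-only and neither classes lie above Trdc only, whereas in Sox4, Dntt, Ccr9 and Itga4 the Trdc-only class lies between them and the non-members with Sox13 and Trdc in both runs.

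Of 10 cytokine and receptor genes tested, 1 was higher (Il17ra) and 5 were lower (Il22, Il17rb, Il7r, Il18r1 and Cxcr6), with a median change of -0.58. Il7r stood at 434 against 790 CPM and 833 against 1550 CPM (-0.96 ± 0.11, edgeR adjusted p = 1.17e-06), and it alone of the 6 was also called with DESeq2. Il22 had 0 and 4 UMIs in Trdc-only members of the second and the third run, and 4 and 127 UMIs in Trac-only members. Of 15 surface and effector genes, Cd163l1 and 5830411N06Rik were higher and Lgals3, Pxdc1, Capg, Ramp1, Serpinb1a and Ltb lower, of which all but Serpinb1a and Ltb were also called with DESeq2 and without the highest doublet scores. Both scavenger receptor genes of γδ T cells were thus the ones that rose, Cd163l1 at 502 against 27.8 CPM and 156 against 8.95 CPM (4.09 ± 0.26, edgeR adjusted p = 6.1e-11). 5830411N06Rik was close between the classes in the second run (91.8 against 82.5 CPM) and apart in the third (466 against 111 CPM). Lgals3 stood at 110 against 740 CPM and 287 against 930 CPM (-1.98 ± 0.20), and Pxdc1 at 128 against 416 CPM and 70.5 against 249.2 CPM (-1.83 ± 0.20). The rule gene Icos, given as a description, was at 379 against 922 CPM and 330 against 1134 CPM.

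Of 10 genes of DN2 and DN3 cells tested, 8 were higher in Trdc-only members and 0 lower, with a median change of 1.61. They were Hes1, Dntt, Cd24a, Il2ra, Themis, Notch1, Lef1 and Bcl11b. Dntt stood at 459 against 71.2 CPM and 609 against 39.0 CPM (3.32 ± 0.21, edgeR adjusted p = 5.05e-11), and Cd24a at 214 against 35.6 CPM and 206 against 16.0 CPM (3.08 ± 0.26). The Notch target Hes1 stood at 135 against 24.3 CPM and 154 against 5.11 CPM (3.50 ± 0.39). All 3 remained below their level in the rest of the run, except Hes1 in the third run. Of the 8 calls, 5 were kept with DESeq2 and 4 of the 5 that could be tested without the highest doublet scores. With a sum of at least 3 UMIs of the rule genes, 5 of the 7 that could be tested were kept. That setting lowered Trdc-only members of the third run from 44 to 28 and Trac-only members from 151 to 135.

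Of 9 homing genes tested, Ccr9, Itga4, Cd69 and Klf2 were higher and Itgae lower in Trdc-only members. Ccr9, a chemokine receptor of thymocytes and gut-homing T cells, had the largest change among the called genes of the lists, at 79.5 against 1.74 CPM and 433 against 9.58 CPM (5.38 ± 0.32, edgeR adjusted p = 2.44e-11). Itga4 stood at 42.8 against 6.08 CPM and 242 against 19.8 CPM (3.38 ± 0.31), and Itgae at 91.8 against 194 CPM and 113 against 275 CPM (-1.31 ± 0.20). All 5 calls were kept with DESeq2. Of 12 proliferation genes, Cdk1, Birc5, Top2a, Ccna2 and Mki67 were higher and 0 lower, with Top2a at 190 against 48.6 CPM and 234 against 104 CPM (1.34 ± 0.23). Only 1 of these 5 calls was kept with DESeq2, and without the highest doublet scores none of the 5 could be tested. With a sum of at least 3 UMIs of the rule genes, all 5 were tested and 0 were called.

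Survival, receptor and type 1 genes were also called between the classes. Bcl2, Bcl2l1 and Bcl2l11 were higher and Bcl2a1d and Bcl2a1b lower in Trdc-only members, of which Bcl2, Bcl2a1d and Bcl2a1b were also called with DESeq2. Bcl2 stood at 79.5 against 17.4 CPM and 154 against 15.3 CPM (2.84 ± 0.32). The γδ constant genes Tcrg-C1, Tcrg-C2 and Tcrg-C4 were higher, with Tcrg-C1 at 1578 against 695 CPM and 463 against 326 CPM (0.80 ± 0.14). Of the 2 αβ constant genes tested, Trbc1 was also higher, at 1377 against 962 CPM and 1646 against 985 CPM (0.56 ± 0.11, edgeR adjusted p = 0.000654), and Trbc2 missed the threshold. Without the highest doublet scores, and with a sum of at least 3 UMIs of the rule genes, the call for Trbc1 was lost. Of the 3 γδ constant genes, only Tcrg-C1 was still called under these settings, as it was with DESeq2. Of the 11 CD3 and signaling genes, Cd27, Cd247 and Cd3g were higher and Cd6, Cd5, Zap70 and Cd3d lower, of which Cd3g and Cd6 were also called with DESeq2 and Cd247, Cd3g and Cd6 without the highest doublet scores. Of 5 type 1 genes tested, Gzma, Klrk1, Stat4 and Nkg7 were higher and Klrb1c lower, of which Gzma, Klrk1 and Klrb1c were also called with DESeq2. Gzma, a protease of cytotoxic granules that immature γδ thymocytes also carry, stood at 165 against 13.9 CPM and 227 against 21.7 CPM (3.36 ± 0.25), and Klrb1c at 18.4 against 84.2 CPM and 2.52 against 51.8 CPM (-3.13 ± 0.50). Costimulatory Cd40lg, the ligand of CD40, was at 0 against 76.4 CPM and 12.6 against 53.7 CPM (-2.82 ± 0.50).

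**Figure D5:**
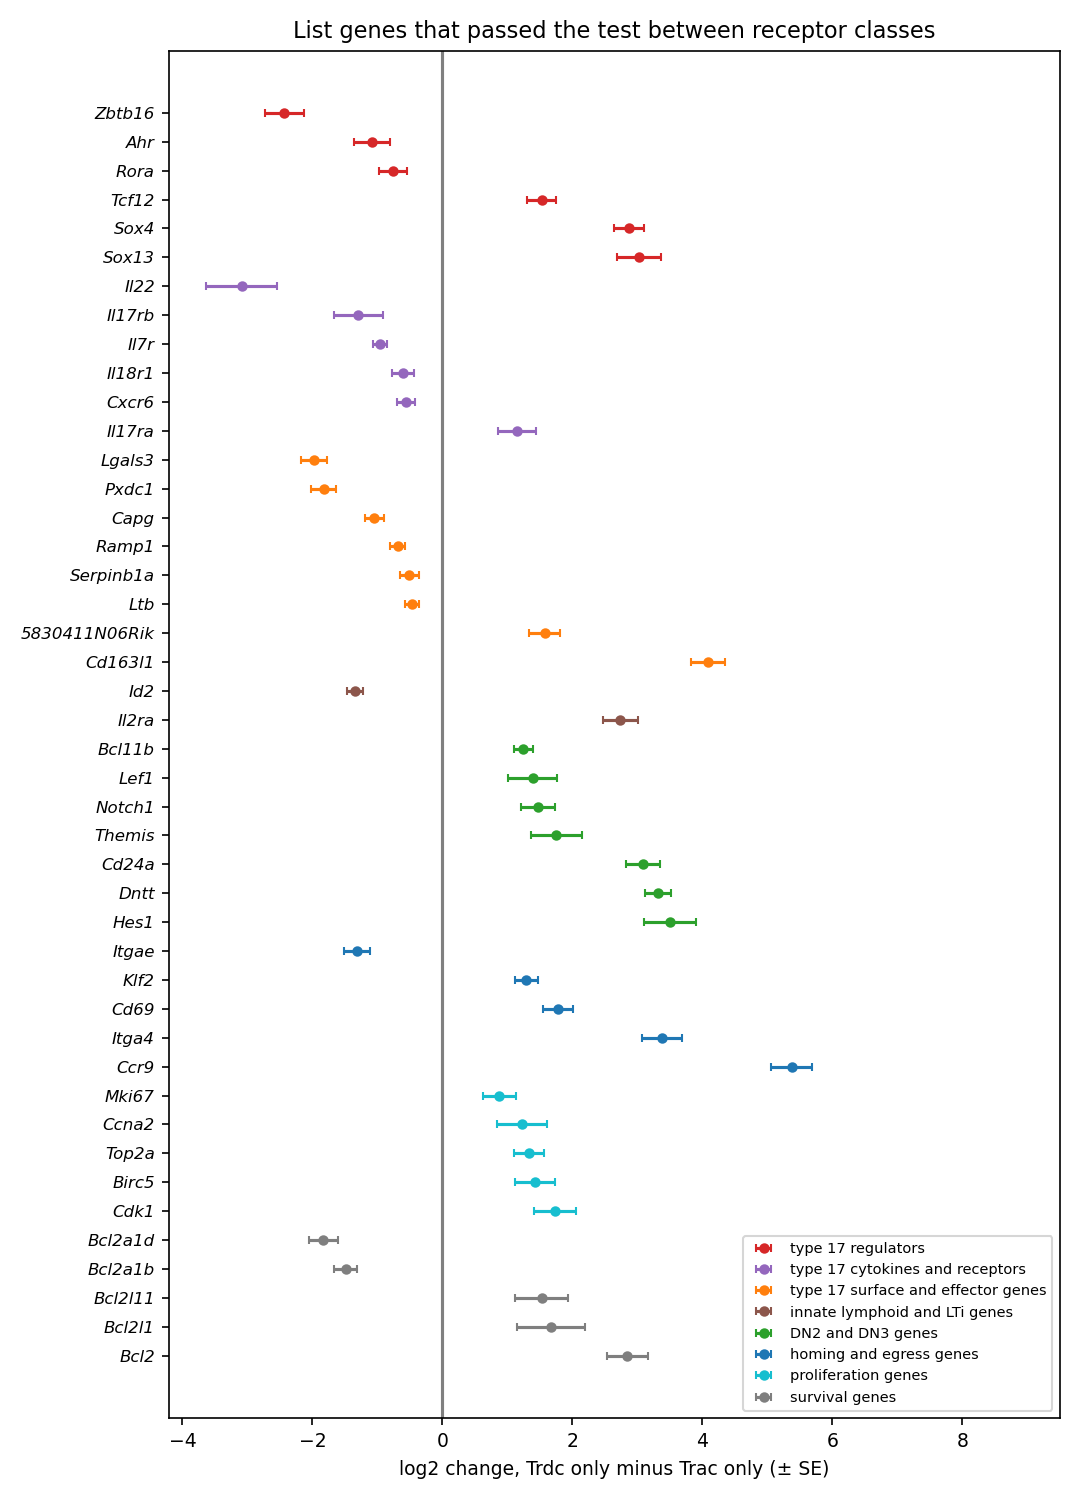
Log2 change between Trdc-only and Trac-only members, with its standard error, for genes of 8 lists with adjusted p under 0.05 (edgeR), by list. Genes of DN2 and DN3 cells lie right of 0 (Dntt 3.32, Cd24a 3.08), and Zbtb16 (-2.43), Lgals3 (-1.98) and Id2 (-1.34) lie left of it.

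Outside the lists, the genes with the largest rise in Trdc-only members included Cpa3, Marcks, Zeb2, Rapgef3, Aff3, Arpp21 and Endou. Cpa3, a mast cell protease that early thymic progenitors also carry, stood at 116 against 13.0 CPM and 121 against 1.28 CPM (4.25 ± 0.45, edgeR adjusted p = 3.33e-07), and Marcks at 104 against 3.47 CPM and 239 against 8.95 CPM (4.66 ± 0.32). Those with the largest fall included Ccr10, Slfn1, Igflr1, Fbxo17, Kcnk7 and Chad. Ccr10, a chemokine receptor of skin-homing lymphocytes, had 0 UMIs in Trdc-only members of both runs, against 56.4 and 33.2 CPM in Trac-only members, so that it was at least 8.05-fold lower (3 counts over the class). Slfn1, a gene of quiescent T cells, stood at 6.12 against 35.6 CPM and 0 against 83.7 CPM (-5.22 ± 0.72).

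Markers of other cells moved with this contrast. B cell markers summed to 316 CPM in Trdc-only against 148 CPM in Trac-only members of the second run and 723 against 316 CPM in the third, and Cd79a and Ighm were called higher. Myeloid and dendritic markers summed to 310 against 270 CPM and 1136 against 410 CPM, where Cd74, the invariant chain of class II molecules, was the most abundant in the third run (691 CPM) and was called higher with H2-Aa. The calls for Cd74, H2-Aa and Cd79a rest on the third run, since in the second Cd74 had 1 UMI in Trdc-only and 9 in Trac-only members (6.12 against 7.81 CPM) and H2-Aa and Cd79a had 0 in both. Tcf4 and Ccr9 of the plasmacytoid dendritic list were also called, and Pecam1 of the stromal list. Of these calls, those for Ighm and Ccr9 were kept with DESeq2. Without members that held a UMI of Cd79a, Ms4a1, H2-Aa or Cd74, 264 genes were higher and 204 lower, and 7 of the 7 calls for DN2 and DN3 genes that could be tested and 5 of the 5 homing calls were kept. Trdc-only members were also shallower, with a median of 3165 UMIs against 3901 in the second run and 6405.5 against 9678 in the third, and high doublet scores were more frequent among them, as given above. The part of depth was not tested.

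Members with neither constant gene resembled those with Trac only, and the part of uncounted Trac in this resemblance was not tested. In this contrast 3 genes were higher (0.0553%; Myl10, Crip1 and Cd74) and 19 lower (0.350%) by edgeR, whereas 360 of 5427 had an unadjusted p under 0.05. Cd74 (edgeR adjusted p = 0.0493) was still called under 1 of the 7 alternatives that tested it, and its change turned to -3.11 with a sum of at least 3 UMIs of the rule genes. The 10 largest falls were those of Mki67, Top2a, Pclaf, Hist1h1b, Hist1h3c, Ccnb2, Cks1b, Clspn, Ube2c and Nrgn, a calmodulin-binding protein gene. Pclaf, which binds PCNA, stood at 4.66 against 135 CPM and 30.7 against 130 CPM (-2.68 ± 0.37, edgeR adjusted p = 0.000336), and Mki67 at 0 against 16.5 CPM and 9.22 against 84.3 CPM (-3.32 ± 0.56). Of 12 proliferation genes tested, 2 were lower. Members with neither gene were shallower, with a median of 3601.5 UMIs against 3901 in the second run and 8427.5 against 9678 in the third. The class is set by absent UMIs, and the part of depth in these falls was not tested. With cells thinned, it grew from 14.7% to 28.9% of members in the second run and from 13.8% to 46.7% in the third. Trac only fell from 66.6% to 56.7% and from 57.9% to 34.9%. Members that carry Trac can thus enter the class when no UMI of it is counted. The contrast therefore cannot tell members without Trac from members with uncounted Trac. Myl10, a myosin light chain gene, stood at 112 against 33.9 CPM and 129 against 58.8 CPM (1.36 ± 0.27, edgeR adjusted p = 0.0175). None of the 12 type 17 regulators, 10 cytokine and receptor genes or 15 surface genes tested was called, where adjusted p for Rora was 0.961 and for Maf 0.963 (edgeR). Without the highest 10% of doublet scores edgeR called 0 genes of 4240, of which 154 had an unadjusted p under 0.05. Mki67 and Top2a could not be tested there. DESeq2 called 2 higher and 6 lower over all members.

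Against Trdc-only members, those with neither gene differed in 372 genes, of which 174 (3.21%) were higher and 198 (3.65%) lower. With no normalization beyond library size these were 104 and 223. Of 15 surface and effector genes, 9 were higher and 2 lower, of 10 genes of DN2 and DN3 cells 0 were higher and 7 lower, and of 12 proliferation genes 0 were higher and 9 lower. Lgals3 stood at 941 against 110 CPM and 716 against 287 CPM (1.97 ± 0.22, edgeR adjusted p = 1.33e-06), Zbtb16 at 46.6 against 18.4 CPM and 120 against 35.2 CPM (1.79 ± 0.38) and Sox4 at 14.0 against 171 CPM and 67.6 against 453 CPM (-2.80 ± 0.31). In these genes the class without constant genes lay beside Trac-only members, and the part of uncounted Trac in this was not tested. With DESeq2 the call for Zbtb16 was lost, and 9 of the 11 surface and effector calls were kept, with 3 of the 5 DN2 and DN3 calls and 5 of the 7 proliferation calls that had an adjusted p. Without the highest doublet scores, 4 of the 11 surface and effector calls and 3 of the 4 DN2 and DN3 calls that could be tested were kept, and the 1 proliferation call that could be tested was lost. Ccnb1 and Pimreg had 0 UMIs in members with neither gene and were at least 7.71-fold and 7.39-fold lower than in Trdc-only members (3 counts over the class). The contrasts with Trac-only and with Trdc-only members share the libraries of members with neither gene.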

How the data were processed

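Droplet libraries (10x Genomics 3' kits, V2 or V3.1) were made from 3 sorts of pooled thymi. The authors aligned reads to mm10 with Cell Ranger (version 4.0.0 in the header of the third run, not given for each of the others in the sources used here) and deposited raw UMI counts per gene and cell, with no normalization and with doublets still present. The submitters' processing notes also name R 3.6.3 and Seurat 2.3. The limits of 500 to 5000 genes and 7% mitochondrial counts are those of the study, and the number of cells they left differed from the number it states. The members and gene lists were chosen with earlier results of these data known. Counts were summed over cells and scaled to 1000000 UMIs (CPM). For class tests, counts were summed per run and class and tested with edgeR 4.0.16 (limma 3.58.1, R 4.3.3; TMM, filterByExpr, quasi-likelihood F test, two-sided, Benjamini-Hochberg adjustment), with the run as block. The block was taken from the library, and the difference between runs correlated across genes at 0.735, 0.758 and 0.611 between pairs of classes. CPM in class tests refers to genes listed in both runs. DESeq2 1.42.0 was an alternative. Doublet scores came from scanpy 1.11.5 (Scrublet), which called 5.49% and 3.08% of cells, and doublets were removed only in an alternative. Both tools were tested on simulated data for Trdc only against Trac only. There edgeR recovered 70 of 100 2-fold and 94 of 100 4-fold changes, with 6 false calls. DESeq2 recovered 30 and 65 of them, with 0 false calls. The changes were placed only in genes above a minimum mean level in both runs. All genes were drawn at the median dispersion (0.00698), with no doublets. The recovery therefore does not cover genes at lower levels, and neither it nor the false calls cover a larger spread. Named genes were those of the lists, the 12 highest and 8 lowest ratios outside them, and the 10 largest called changes in each direction with the same sign in both runs, leaving out mitochondrial, ribosomal and unnamed genes. Not all of these are reported here, and certain genes that are not reported enter no list count. Genes with fewer than 30 UMIs of support were not counted as measured.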

Additional observations from a re-analysis of the deposited data

Results flagged for a closer look

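Hspa1a, a heat shock gene, moved in opposite directions between the receptor classes in the 2 runs. Its CPM in Trdc-only members was 0.226 times that in Trac-only members in the second run and 6.57 times in the third, where it had 5 and 3 UMIs in the classes. The difference between runs was not tested. In data outside the comparisons, 5 cells of the first run met the rule, all with Trdc only, and 9 cells of the second run and 18 of the third met it but lay outside the limits on genes and mitochondrial counts.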

How the results depend on the processing

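The share of members followed the rule. In the second run it was 3.25% at a mitochondrial limit of 5%, 2.98% with a sum of at least 3, 5.91% with at least 1, 5.69% with no condition on Il2rb, 2.18% without Aqp3 and Actn2 and 2.21% with cells thinned to 2000 UMIs. In the third run the last 5 gave 2.92%, 4.46%, 6.60%, 2.86% and 1.66%. In the second run, Trac only was 71.4% without the highest doublet scores and 58.2% when 2 UMIs of Trac or Trdc were asked for. Both was 2.04% (thinned), 4.96% (doublet scores) and 3.80% (2 UMIs), and neither 29.1% (thinned) and 27.3% (2 UMIs). In the third run, Trac only was 49.6% (sum of at least 1), 37.9% (thinned) and 47.9% (2 UMIs), Trdc only 25.1% (sum of at least 1) and 6.45% (thinned), both 0% (thinned), 7.14% (doublet scores) and 3.07% (2 UMIs), and neither 55.6% (thinned) and 31.0% (2 UMIs). Genes higher and lower than the rest numbered 129 and 114 at 4-fold, 218 and 263 at 100 UMIs of support, and 139 and 129 with the rest limited to cells with Icos. With that rest, 135 ratios of single genes were the same, 93 were weaker and 4 were reversed. The reversed ratios were 0.888 and 0.709 for Trac, 1.004 for Rag1 in the second run and 0.944 for Il18rap in the third. For Trdc only against Trac only, calls higher and lower were 88 and 49 (DESeq2), 106 and 83 (doublet scores), 80 and 48 (sum of at least 3), and 413 lower at a filter of 1 UMI. For neither against Trac only they were 2 and 6 (DESeq2), 0 and 0 (doublet scores), 6 lower (sum of at least 3), 7 and 34 (1 UMI), and, chosen after seeing the data, 1 higher without members with a B cell or class II UMI and 8 higher when the class gene had 2 UMIs. For neither against Trdc only they were 60 and 64 (DESeq2), 57 and 60 (doublet scores), 43 and 63 (sum of at least 3), and 104 higher with no normalization. Without the replicate block, edgeR called 0 genes in each contrast, where 238, 42 and 279 had an unadjusted p under 0.05. Cd74 changed sign in neither against Trac only with a sum of at least 3 (-3.11), Ltb in Trdc only against Trac only without the highest doublet scores (0.00769), and Hspa1a with DESeq2 (0.96, and -1.30 in neither against Trdc only), and the cause was not tested. Each class holds a library from each run, so that leaving out a run leaves no residual degrees of freedom, and no such test was made. Of the 490 calls for Trdc only against Trac only, 137 were shared with DESeq2 and 125 with a sum of at least 3. The fit without the highest doublet scores shared 170, and that without B cell or class II UMIs 405. Genes with too few UMIs in these classes, of which the smaller held 33 to 58 cells, were filtered out and not tested.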

Other observations

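Variable segments were seen in few members. Trav11, the α chain segment of most NKT cells, had a UMI in 22 members of the second run, all of them with Trac only, and in 8 of the third, of which 7 had Trac only and 1 both. Tcrg-V4 was found in 7 members of the second run and 63 of the third, in 25.2% of Trac-only and 20.5% of Trdc-only members of the third run, and in 14.0% of the other cells of that run. Tcrg-V6 was found in 2 members of each run. The difference between the classes was not tested.

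Members with both Trac and Trdc lay between the single classes in Lgals3 and Zbtb16. In Sox4, and in Dntt of the second run, they lay above both. Dntt stood at 885 CPM and 420 CPM in the 2 runs, against 455 and 605 CPM in Trdc-only members, Sox4 at 249 and 468 CPM, Lgals3 at 340 and 389 CPM, and Zbtb16 at 25.2 and 66.9 CPM. Of 10 interferon-response genes, Zbp1 alone was past 2-fold higher in members than in the rest of both runs (2.45-fold and 2.37-fold), and of 10 measured immediate early and heat shock genes none was past it in either direction. Of 6 measured costimulatory and inhibitory receptors, Cd82, Il18rap and Cd40lg were past 2-fold higher and Ctla4 lower, and against other cells with Icos the ratio for Il18rap in the third run was 0.944.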
